A study of Mus musculus with 12 samples.

Results

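Insm1, the 3 Rcor genes, Rest, Kdm1a, Hdac1 and Hdac2 encode a set of repressors and corepressors that work together on DNA, and their levels were followed in the brains of 12 mouse embryos. The 8 genes were found by symbol among 40690 gene identifiers, and all 8 were among the 16002 genes kept by the filter on low counts. The same symbols name 31 of the listed transcripts. The set was assembled around Insm1 and Rcor2, which were selected on their small p-values in the comparison of LC1 knockouts with LC1 wild types. Values of that comparison are therefore given below as a description, without a test, and so is every contrast that contains the LC1 wild types or knockouts.

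The embryos were C57BL/6J, taken on embryonic day 14.5, and fell into 4 groups of 3, with RNA of the whole brain read through its poly(A) tails. Upstream of the transcription factor gene Pou3f2 lies LC1, a conserved element that codes for no protein. LC1 wild types (embryos 6, 26 and 73) were compared with embryos carrying a deletion of the element, labelled LC1 knockout (7, 22 and 71), and all 6 were female. RKI wild types (A2, A9 and A16) were compared with RKI homozygotes (A1, A10 and A18), which carry a human variant knocked into the element on both alleles. Each RKI group held 1 female, A9 or A10, and 2 males. The labels name no further allele in any group. The labels state that mutants and wild types were matched by sex and litter but name no litter, and gene counts cannot check either genotype. Line, litter and sequencing run cannot be told apart between the 2 experiments.

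REST is a zinc finger repressor that binds a long DNA motif near neuronal genes and keeps them low in cells that are not neurons. It recruits CoREST proteins, encoded by Rcor1, Rcor2 and Rcor3, which act as a scaffold for the histone demethylase LSD1, encoded by Kdm1a, and for the histone deacetylases HDAC1 and HDAC2. INSM1 is a zinc finger factor of neurogenic progenitors and endocrine cells, whose N-terminal SNAG domain binds the same LSD1 and CoREST machinery. In the developing cortex Insm1 promotes the formation of basal progenitors, and Rest falls as progenitors become neurons.

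In GENCODE M21 on GRCm38, Insm1 (ENSMUSG00000068154) is a gene of a single exon at chr2:146221921-146225020 on the plus strand. Rest (ENSMUSG00000029249) lies at chr5:77265491-77286432, plus strand. Rcor1 (ENSMUSG00000037896) lies at chr12:111039351-111115901, Rcor2 (ENSMUSG00000024968) at chr19:7267325-7275225, both on the plus strand, and Rcor3 (ENSMUSG00000037395) at chr1:192098546-192138062 on the minus strand. Kdm1a (ENSMUSG00000036940) lies at chr4:136550540-136602723 and Hdac1 (ENSMUSG00000028800) at chr4:129516104-129542713, both on the minus strand. Hdac2 (ENSMUSG00000019777) lies at chr10:36974544-37001889, plus strand. The sources used here do not give the build behind the deposited counts.

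Kdm1a and Hdac1 carry sequence that bears on how their reads can be counted, so it is shown here. Kdm1a has a coding microexon of 12 bases at chr4:136563438-136563449, minus strand, which is known to be included in neurons and gives the neuronal form of LSD1. It also has a coding exon of 60 bases at chr4:136582040-136582099, minus strand. In the 4 lines below the alternative exon is in capitals, with 24 coding bases on each side, read from the transcripts of GENCODE M21.
12-base exon included: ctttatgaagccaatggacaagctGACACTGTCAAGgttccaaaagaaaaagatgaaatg
12-base exon skipped: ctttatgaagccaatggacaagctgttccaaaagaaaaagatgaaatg
60-base exon included: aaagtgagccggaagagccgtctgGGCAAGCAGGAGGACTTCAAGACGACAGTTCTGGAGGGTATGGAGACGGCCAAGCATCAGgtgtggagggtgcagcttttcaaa
60-base exon skipped: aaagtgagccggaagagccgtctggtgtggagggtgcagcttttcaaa

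Hdac1 has a processed pseudogene, Gm10093 (ENSMUSG00000061062), on another chromosome at chr17:78491582-78493025, plus strand. Its single transcript of 1444 bases aligns without gaps to positions 85 to 1528 of the 2038 bases of Hdac1 transcript ENSMUST00000102597, whose coding sequence spans 85 to 1530. The copies differ at 9 positions, an identity of 99.38%. Of the 1989 windows of 50 bases in the Hdac1 transcript, 1121 also occur in Gm10093, and 58.67% occur in some other gene. The stretch of 60 bases below, at positions 773 to 832 of the Hdac1 transcript, holds 1 difference, in capitals.
Hdac1: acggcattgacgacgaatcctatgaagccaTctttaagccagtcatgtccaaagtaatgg
Gm10093: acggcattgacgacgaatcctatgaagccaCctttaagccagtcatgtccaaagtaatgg

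On the deposited gene RPKM, reads scaled by gene length and library total, the 8 genes ranged over more than an order of magnitude. Hdac2 was highest at 83.5 ± 4.97 RPKM (SD, n = 12 embryos), above 97.4% of the genes kept by the filter or level with them. Rcor2 followed at 49.3 ± 3.77, Kdm1a at 40.4 ± 1.38 and Insm1 at 25.6 ± 2.51 RPKM. Rcor1 was at 9.95 ± 0.494, Hdac1 at 6.05 ± 0.595, Rcor3 at 5.34 ± 0.268 and Rest, the DNA-binding repressor, lowest at 3.96 ± 0.342 RPKM. Rest stood at percentile 40.9 of the genes kept. The ranges of 2 pairs of neighbours in this order overlapped, Rcor2 with Kdm1a and Hdac1 with Rcor3, and the ranges of the other neighbours did not. In bulk tissue, fewer cells of a type and less RNA per cell cannot be told apart.

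Among the CoREST scaffold genes, Rcor2 made up 76.3% ± 1.27 of the summed RPKM of the 3 Rcor genes (SD, n = 12), Rcor1 15.4% ± 0.878 and Rcor3 8.29% ± 0.611. Over the embryos the share of Rcor2 ran from 74.6% to 78.5%, that of Rcor1 from 13.6% to 17.1% and that of Rcor3 from 6.92% to 9.07%. On gene RPKM the order of the 3 genes was therefore the same in each. On summed RPKM of coding transcripts, given below, the means were 28.8 for Rcor2, 7.05 for Rcor1 and 5.54 for Rcor3. There the ranges of Rcor1 and Rcor3 overlapped, and the shares above hold for gene RPKM only. Relative spread was taken over all 12 embryos as the coefficient of variation on CPM (counts scaled to the TMM-adjusted library total). It was 9.87% for Insm1, 9.23% for Hdac1 and smallest for Kdm1a, at 3.63%. These values include differences between groups, among them the LC1 difference on which Insm1 was selected, so the place of Insm1 is not read. The plot of RPKM by gene shows the order and the spread.

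**Figure D1:**
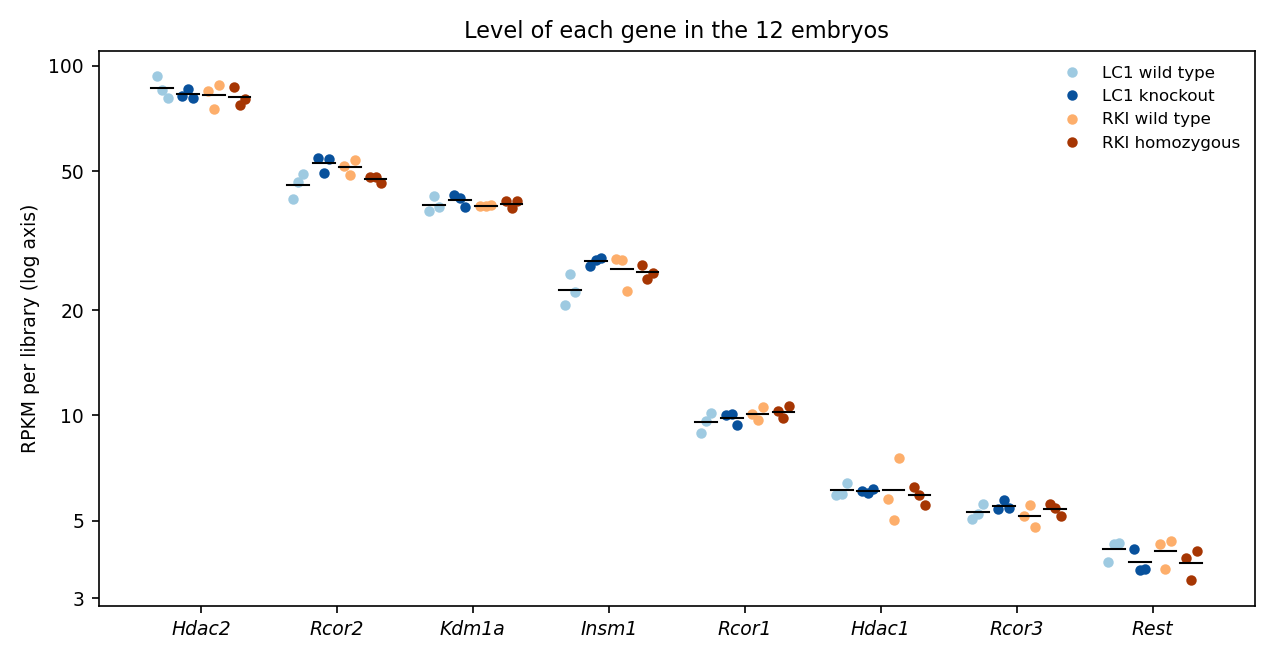
Deposited RPKM of the 8 genes on a log axis, in the order of their means, with 1 point per embryo coloured by group and a black line at the mean of each group of 3. Hdac2 is highest at 75.3 to 93.6 RPKM and Rest lowest at 3.37 to 4.39 RPKM. In Insm1 and Rcor2, both selected on LC1, the LC1 knockouts lie above the LC1 wild types.

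The order depended on which deposited table was read, most of all for Hdac1. Gene counts of Hdac1 ran from 375 to 571, while the estimated counts of its transcripts summed to between 1810 and 2686 in the same libraries. The gene count was 18.3% to 22.0% of the transcript sum, against a median of 96.9% over 14758 genes, and 3.58% of those genes were under 25%. On summed RPKM of coding transcripts Hdac1 was at 32.8 ± 2.29 (SD, n = 12), below Hdac2 at 164 ± 8.4 and Kdm1a at 80.2 ± 4.79, and its range overlapped that of Rcor2, the next below, at 28.8 ± 2.14. On the same scale Insm1 was at 11.9 ± 1.3, Rcor1 at 7.05 ± 0.711, Rcor3 at 5.54 ± 0.359 and Rest at 1.5 ± 0.122, where the ranges of Rcor1 and Rcor3 overlapped.

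Gm10093, the near-identical copy shown above, had gene counts of 4 to 14 and transcript estimates of 0 in all 12 libraries. Whether the authors' gene counting left out reads that match both copies was not tested, and the level of Hdac1 is uncertain between these tables. The other genes differed less between the tables. Gene counts were 191% to 207% of the transcript sum for Rest, 146% to 169% for Insm1, 137% to 157% for Rcor2 and 134% to 164% for Rcor1. They were 86.9% to 92.9% for Kdm1a, 79.7% to 85.4% for Hdac2 and 68.1% to 74.5% for Rcor3. Exons of Rcor3 overlap those of the antisense gene Gm26879 over 667 bases, and 618 of the 3742 windows of 50 bases in Rcor3 transcript ENSMUST00000110849 also occur in Gm26879. The sources used here do not give the strand setting of the counting, so reads of this pair cannot be told apart.

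**Figure D2:**
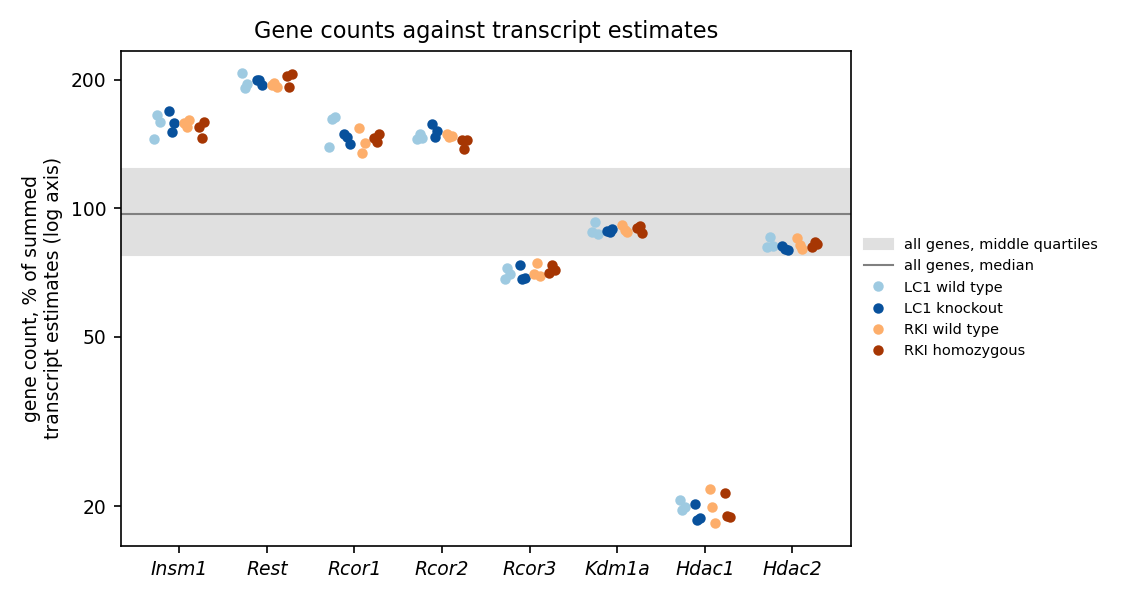
Gene count as a percentage of the summed transcript estimates (log axis) for each gene, 1 point per embryo coloured by group, with the median (line) and the middle quartiles (band) of 14758 genes. Hdac1 lies at 18.3% to 22.0% in every embryo, and Rest lies near 200%.

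Insm1 was read first in LC1, the comparison it was selected on. LC1 wild types 6, 26 and 73 had 20.7, 25.4 and 22.6 RPKM, and knockouts 7, 22 and 71 had 26.8, 27.9 and 28.3 RPKM. All 3 knockouts lay above all 3 wild types, as 3.36% of the 16002 genes did, a share from which nothing is read because the contrast chose the gene. The log2 fold change was 0.28 (SE 0.084), a fold of 1.21. Set against the mean of the wild types, the knockouts were higher by 0.25 to 0.30 on log2 CPM. Without wild type 6, the lowest embryo, the log2 fold change was 0.22.

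In the RKI embryos, which had no part in selecting it, Insm1 did not pass the test. Among RKI wild types, A2 had 28.1, A9 27.9 and A16 22.7 RPKM, and homozygotes A1, A10 and A18 had 26.9, 24.6 and 25.5 RPKM. The homozygotes lay inside the range of the wild types, whose lowest embryo was A16. The log2 fold change was -0.02 (SE 0.083) with a 95% interval of -0.20 to 0.15, and edgeR's quasi-likelihood test gave an adjusted p of 1. Its sign turned without A2, A9 or A10, to between 0.05 and 0.07, and without A16 the value was -0.13. Because the fit includes sex, the runs without A9 and without A10 both rest on males A2 and A16 against A1 and A18. RKI wild types were above LC1 wild types by 0.21 (SE 0.101), a contrast that holds the LC1 wild types and is given as a description.

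Rcor2, the scaffold with the highest level of the 3, had 41.6, 46.5 and 49.1 RPKM in LC1 wild types 6, 26 and 73 and 54.7, 49.5 and 54.0 RPKM in knockouts 7, 22 and 71. The knockouts lay above the wild types, although knockout 22 exceeded wild type 73 by under 1 RPKM. Of the 16002 genes 3.36% did so, and nothing is read from it because the LC1 contrast chose Rcor2 too. The log2 fold change was 0.21 (SE 0.063), a fold of 1.16, and without wild type 6 it was 0.15. Knockouts exceeded the wild-type mean by 0.11 to 0.28 on log2 CPM.

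In RKI the order of the Rcor2 groups was the opposite. Wild types A2, A9 and A16 had 51.8, 48.7 and 53.7 RPKM, and homozygotes A1, A10 and A18 had 48.2, 48.0 and 46.3 RPKM. All 3 homozygotes lay below all 3 wild types, with A9 and A1 less than 1 RPKM apart, and RKI groups of 5.67% of the 16002 genes did not overlap in one direction or the other. Rcor2 was the 1 gene of the 8 whose RKI groups did not overlap. The log2 fold change was -0.10 (SE 0.063) with a 95% interval of -0.24 to 0.03, an unadjusted p of 0.112 and an adjusted p of 1 by edgeR's quasi-likelihood test, so it did not pass. The authors' deposited table gives -0.11 with an unadjusted p of 0.105. On gene totals of the transcript estimates the value was -0.05. RPKM of the coding transcript ENSMUST00000066646 overlapped between the RKI groups, at 22.4, 18.8 and 22.2 in A2, A9 and A16 and 20.3, 20.5 and 17.4 in A1, A10 and A18.

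The difference between the LC1 and RKI log2 fold changes, given as a description, was 0.30 (SE 0.119) for Insm1 and 0.31 (SE 0.089) for Rcor2. It lay between -0.06 and 0.02 for the other 6 genes. It contains the LC1 contrast that chose Insm1 and Rcor2, so their distance from the others is not read. For Insm1 the 3 knockouts and 1 of 3 homozygotes were above their wild-type mean. For Rcor2 the 3 knockouts and 0 of 3 homozygotes were. On gene totals of the transcript estimates the Rcor2 difference was 0.20. On RPKM of the transcripts the LC1 groups overlapped for both genes. Insm1 transcript ENSMUST00000089257 was at 12.9 in wild type 26 against 11.9 in knockout 22, and Rcor2 transcript ENSMUST00000066646 at 22.6 against 19.7 in the same embryos.

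**Figure D3:**
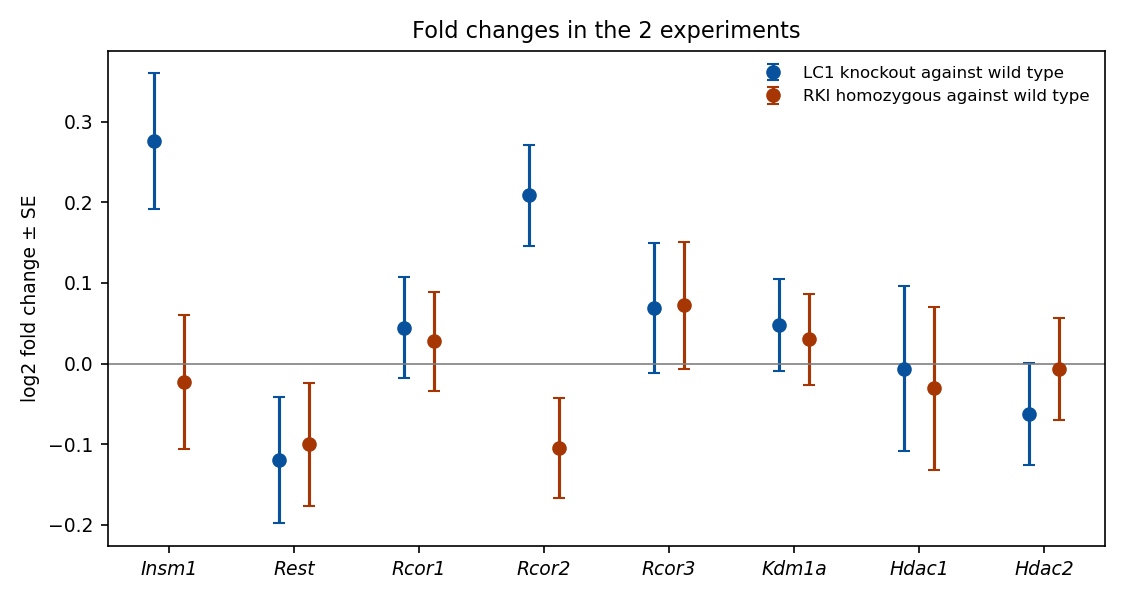
Log2 fold change of each gene with its standard error (bars), for LC1 knockout against wild type and RKI homozygous against wild type, 3 embryos per group. Insm1 and Rcor2, selected on LC1, stand at 0.28 and 0.21 there and at -0.02 and -0.10 in RKI, and the other 6 genes lie within 0.13 of 0 in both.

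Rest, which brings the complex to neuronal genes, had 3.80, 4.30 and 4.31 RPKM in LC1 wild types 6, 26 and 73 and 4.16, 3.60 and 3.64 RPKM in knockouts 7, 22 and 71. The groups overlapped, with a log2 fold change of -0.12 (SE 0.078), which was -0.20 without knockout 7 and -0.08 without knockout 22. In RKI wild types A2, A9 and A16 it had 4.28, 3.63 and 4.39 RPKM, while homozygotes A1, A10 and A18 had 3.92, 3.37 and 4.09 RPKM. These groups overlapped too, and the log2 fold change was -0.10 (SE 0.077) with a 95% interval of -0.26 to 0.06 and an adjusted p of 1 by edgeR's quasi-likelihood test. In each RKI group the female embryo, A9 or A10, had the lowest value.

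Male against female, estimated within RKI because all LC1 embryos were female, gave 0.25 (SE 0.083) for Rest on the log2 scale, higher in males, with an unadjusted p of 0.00783 and an adjusted p of 0.890 by edgeR's quasi-likelihood test, so it did not pass. By the same test Hdac2 was at 0.15 with an unadjusted p of 0.0424 and Hdac1 at 0.19 with 0.0959. With no adjustment, 829 of the 16002 genes had p under 0.05 for sex in this test. After adjustment 0 of the 8 genes passed for sex, where 8 of 16002 genes (0.05%) did. The RKI males had 3.92 to 4.39 RPKM of Rest and the RKI females 3.37 and 3.63, while the LC1 embryos, all female, had 3.60 to 4.31 and so overlapped the males.

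The remaining genes lay close together in all groups. Rcor1, the most widely expressed CoREST scaffold, ran from 8.90 to 10.6 RPKM over the 12 embryos, with log2 fold changes of 0.04 in LC1 and 0.03 in RKI. Without one embryo these ran from 0.00 to 0.08 and from 0.01 to 0.04. Rcor3 ran from 4.78 to 5.73 RPKM and was above the wild-type mean in 3 of 3 knockouts and 3 of 3 homozygotes, by 0.03 to 0.12 on log2 CPM, but its groups overlapped in both experiments. Its log2 fold changes were 0.07 (SE 0.080) in LC1 and 0.07 (SE 0.079) in RKI. The LC1 value ran from 0.05 without knockout 22 to 0.10 without wild type 73. The RKI value was 0.02 without A16 or A1 and 0.13 without A9 or A10, where the last runs rest on the same RKI males. Kdm1a, the demethylase, ran from 38.6 to 42.9 RPKM, with 0.05 (SE 0.057) in LC1 and 0.03 (SE 0.057) in RKI. Without one embryo these ran from 0.01 to 0.09 and from 0.02 to 0.07.

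The groups of both deacetylase genes overlapped in both experiments. Hdac2 had 93.6 RPKM in LC1 wild type 6, its highest value, and 75.3 to 88.1 RPKM in the other embryos, with -0.06 (SE 0.064) in LC1 and -0.01 (SE 0.064) in RKI. Hdac1 on gene counts had 5.76, 5.02 and 7.56 RPKM in RKI wild types A2, A9 and A16, so that the lowest and the highest embryo of the series fell in the same group, and 5.54 to 6.42 RPKM in the other 9. Its coding transcript ENSMUST00000102597 had 30.1, 29.1 and 36.5 RPKM in the same 3 wild types, where A9 and A16 were again the extremes of the series. The RKI log2 fold change of Hdac1 was -0.03 (SE 0.101), and without A16 it was 0.12.

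Across the 8 genes 3 were higher and 5 lower in RKI homozygotes, with a median log2 fold change of -0.01 beside 0.00 for all genes, and 0 passed, as 0% of the 16002 genes did. With no adjustment, 307 genes had p under 0.05 in the RKI test, and 0 of the 8 were among them. For RKI, DESeq2 and limma-voom also called 0 genes. In LC1 knockouts 5 of the 8 were higher and 3 lower, with a median of 0.05 beside -0.00 for all genes.

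Likeness between Insm1 and Rcor2 was described by the Pearson correlation of log2 CPM over the 12 libraries, which share 2 lines and 4 groups. It was 0.50 over all 12, 0.79 over the 6 LC1 libraries, where both genes separate the groups on which they were selected, and -0.30 over the 6 RKI libraries. Rcor2 ranked 1507 among the 16001 other genes by its correlation with Insm1. RKI wild type A16 was low in Insm1 and high in Rcor2, and LC1 wild type 6 was lowest in both. Among the genes most like Insm1 were Tmtc1 at 0.93, Herc3 at 0.91, Rbm24 at 0.89 and Slitrk1 at 0.88, with 0.76 to 0.97 within each line. The genes most like Rcor2 were Edem1 at 0.95, Gemin5 at 0.92, Mdc1 at 0.89, Gm15857 at 0.88 and Lrrc36 at 0.88, with 0.69 to 0.99 within each line. Both sets were picked as the highest of 16001 genes over these same 12 libraries. High values, also within each line, follow in part from that choice, and none was tested.

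**Figure D4:**
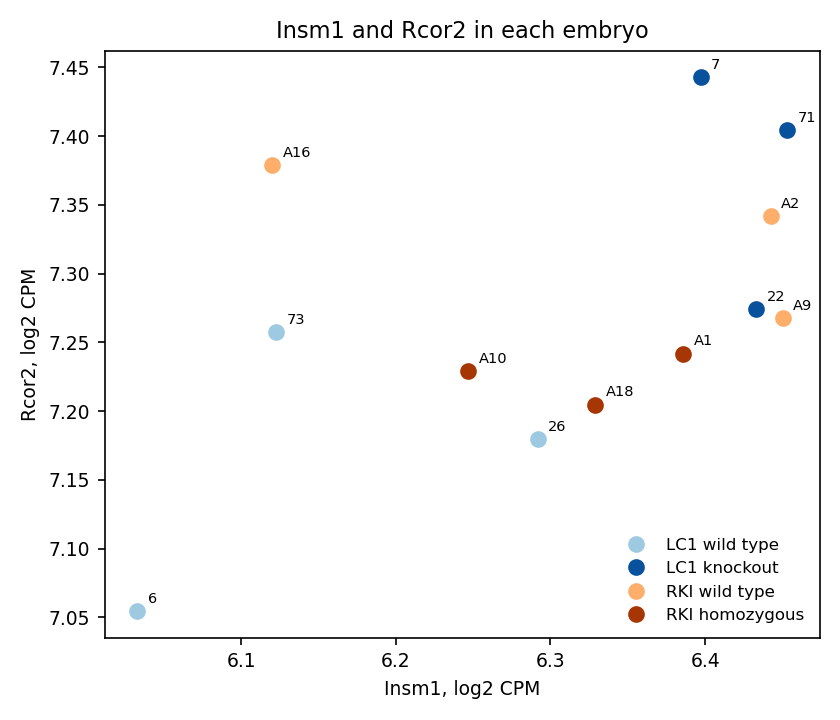
Log2 CPM of Insm1 (x) and Rcor2 (y) in each of the 12 embryos, labelled by embryo and coloured by group. The LC1 knockouts lie to the right of and above the LC1 wild types, the RKI homozygotes lie below the RKI wild types on the y axis only, and A16 is low in Insm1 and high in Rcor2.

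Transcript estimates were read for the isoforms. Of the 31 transcripts of the 8 genes, 27 passed the low-count filter and 0 passed the RKI test, as 0% of the 47772 transcripts did, and 0 of the 27 had an unadjusted p under 0.05, while 1172 of all transcripts did. In every alternative run, 0 of these transcripts passed. DESeq2 called 132 transcripts of all genes where edgeR called 0. For Rcor2 the coding transcript ENSMUST00000066646 was at 21.1 ± 1.99 RPKM in RKI wild types and 19.4 ± 1.74 in homozygotes, and ENSMUST00000113369, also coding, at 8.44 ± 1.27 and 9.20 ± 0.941 (SD, n = 3 each). Of the 2 Rcor1 transcripts, ENSMUST00000116388 was at 2.42, 4.33 and 2.91 RPKM in LC1 wild types 6, 26 and 73 and at 4.41, 4.01 and 4.32 RPKM in knockouts 7, 22 and 71. Wild type 26 lay with the knockouts and the other 2 wild types below them.

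The Kdm1a transcript with the 12-base microexon, ENSMUST00000170979, is a partial model of 965 bases. It held 20.4% ± 0.959 of the summed RPKM of the 5 coding Kdm1a transcripts in LC1 wild types, 20.6% ± 1.3 in LC1 knockouts, 22.4% ± 4.12 in RKI wild types and 21.9% ± 3.16 in RKI homozygotes (SD, n = 3 each). The groups overlapped in both experiments for this transcript, and the RKI embryos spread from 17.9% in A16 to 26.0% in A2. ENSMUST00000105847, which has the 60-base exon and lacks the microexon, held 24.07% to 24.98% as group means, and ENSMUST00000046846, which has neither, 47.8% to 50.7%. The latter is also a partial model, of 2051 bases, whose coding sequence starts at its first base. Whether its reads come from transcripts that skip both exons was not tested. The share of ENSMUST00000046846 was 47.4% to 48.5% in RKI wild types and 49.9% to 50.1% in homozygotes, which did not overlap. The LC1 groups of this share did overlap, at 45.6% to 51.5% and 49.0% to 51.6%. For the other coding transcripts the RKI groups overlapped, and all these shares depend on each other because they divide the same sum. How often such shares fail to overlap in other genes was not counted, so nothing is read from it. At the gene level the RKI groups of 5.67% of genes did not overlap. The shares were not tested. The RKI log2 fold change of ENSMUST00000046846 was 0.08 (SE 0.087) with an adjusted p of 1 by edgeR's quasi-likelihood test. ENSMUST00000116273, a full-length model with neither exon, was at 0.983% to 1.43%. The RKI log2 fold change of the microexon transcript was -0.02 (SE 0.205), with an adjusted p of 1 by edgeR's quasi-likelihood test. Junction reads were not analysed here, so these shares rest on how the estimates divided reads between models of unequal length.

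Other genes of the pathway were read from lists. Of 18 further subunits and partners of these complexes, all measured, 8 were higher and 10 lower in RKI homozygotes with a median of -0.00, 0 passed, and 10 were higher and 8 lower in LC1 knockouts with a median of 0.00. Of this list Hmg20b, a subunit of the CoREST complex, was at -0.11 (SE 0.127) and Sin3b, a scaffold of another deacetylase complex, at 0.05 (SE 0.063). Of 9 related genes outside the complex 8 were measured, 6 higher and 2 lower in RKI with 0 passing, among them Mier3 at -0.06, Mier1 at 0.03 and Hdac3 at 0.02. Of 8 other factors with a SNAG domain 5 were measured, 3 higher and 2 lower in RKI with 0 passing, led by Scrt2, a neuronal repressor, at -0.09 (SE 0.064), Scrt1 at 0.06 and Snai2 at 0.16.

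Known REST target genes, 25 of them measured, were mostly a little higher in RKI homozygotes. In RKI 24 were higher and 1 lower, with a median log2 fold change of 0.10 beside 0.00 for all genes, and 0 passed the test. The 1 lower gene was Bdnf, at -0.01. Chrnb2, a nicotinic receptor subunit, was at 0.12 (SE 0.056, unadjusted p 0.0545), Chgb, a granin of secretory granules, at 0.17 (SE 0.084, unadjusted p 0.0553), and Scg3, another granin, at 0.10 (SE 0.070, unadjusted p 0.153), each with an adjusted p of 1 by edgeR's quasi-likelihood test. Wild type A16 had the lowest summed level of the list in the series, 5745 CPM, and without A16 the count was 13 higher and 12 lower with a median of 0.01. The median was 0.05 without A1 and 0.20 without A9 or without A10. Since sex is in the fit, these last runs share the males A2 and A16 against A1 and A18 and are not separate. In LC1 15 were higher and 10 lower with a median of 0.01, which turned to between -0.02 and -0.00 without 26, 73 or 22. Stmn2 and Tubb3 of this list are also in the list of neuron markers, whose sum was lowest in A16 too, at 7550 CPM against 7708 to 8569 CPM elsewhere. The part of neuron content in these values was not tested.

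Genes of neurogenic progenitors, the cells in which Insm1 is known to act, were mostly higher in LC1 knockouts and mostly lower in RKI homozygotes. Of 16 measured, 15 were higher in LC1 knockouts, with a median of 0.10, and 15 were lower in RKI homozygotes, with a median of -0.10, and 0 passed the RKI test. The medians of all genes were -0.003 in LC1 and 0.001 in RKI. In RKI Neurod1 was at -0.15 (SE 0.085), Neurog1 at -0.47 (SE 0.271) and Gadd45g at -0.22 (SE 0.141), all with an adjusted p of 1 by edgeR's quasi-likelihood test. The first 2 are proneural transcription factors and the third a growth arrest gene. Leaving out wild type 6 gave an LC1 median of 0.05 with 12 higher and 4 lower, and leaving out knockout 71 gave 0.06 with 11 and 5. Leaving out wild type 73 gave 0.17 with 16 higher and 0 lower. On gene totals of the transcript estimates 13 were higher and 3 lower in LC1. The RKI median was -0.06 with 5 higher and 11 lower without A16. It was -0.25 without A9 or without A10, runs that rest on the same RKI males. Summed levels were 704 to 830 CPM in LC1 wild types, 784 to 877 in LC1 knockouts, 759 to 905 in RKI wild types and 752 to 817 in RKI homozygotes. Wild type 6 was lowest and A16 highest. Radial glia genes, markers of the progenitors from which these cells arise, were lower in RKI homozygotes for 6 of 8, with a median of -0.09 and 0 passing, and 4 of 8 were lower in LC1 knockouts, with a median of -0.01. Their sums were 2022 to 2552 CPM in RKI wild types and 2066 to 2246 in homozygotes, with the highest of the series in A16 as well. The neurogenic list was drawn up with earlier results of these data known, and it shares its cells with Insm1, so it is not independent evidence of a direction. Its part in the Insm1 and Rcor2 values was not tested.

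**Figure D5:**
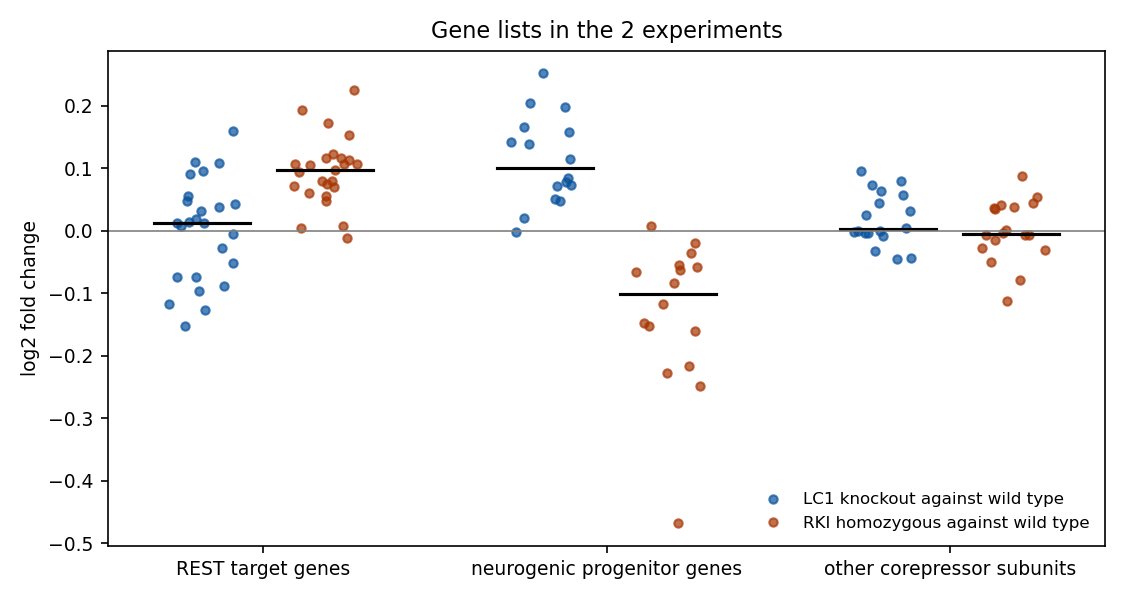
Log2 fold changes of 25 REST target genes, 16 neurogenic progenitor genes and 18 other corepressor subunits, 1 point per gene with a black line at the median, for LC1 and RKI, with points spread sideways for visibility. The neurogenic genes have medians of 0.10 in LC1 and -0.10 in RKI, the REST targets 0.01 and 0.10, and the subunits lie around 0 in both.

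Total counts per library ran from 18192984 to 26566769. Markers of neurons (10 of 10 measured, summed to 7550 to 8569 CPM) and of radial glia (8 of 8, 2022 to 2552 CPM) were present in all 12 libraries, as the label of whole brain implies. The pituitary genes Pou1f1 and Cga had 6 and 4 counts in all libraries together. In LC1 knockouts 9 of 9 microglia genes were lower with a median of -0.29, 8 of 8 meningeal genes with -0.20, 5 of 5 choroid plexus genes with -0.15, 5 of 6 erythroid genes with -0.10, and 4 of 5 endothelial genes with -0.02. Summed levels of the microglia genes were 144 to 184 CPM in LC1 wild types and 135 to 145 in knockouts, and of the meningeal genes 1118 to 1336 and 951 to 1229 CPM. Wild type 6 had the highest sum of the microglia, meningeal, erythroid and choroid plexus lists, and the lowest Insm1 and Rcor2. In RKI 5 of 5 choroid plexus genes were lower, with a median of -0.18, and their sums were 744 to 831 CPM in wild types and 695 to 723 in homozygotes. All 6 erythroid genes were higher in RKI homozygotes, with a median of 0.14, 6 of 9 microglia genes with 0.08, 7 of 10 neuron markers with 0.07, 4 of 8 meningeal genes with a median of -0.01 and 2 of 5 endothelial genes with -0.05. The part of these cells in the Insm1 and Rcor2 values was not tested.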

How the data were processed

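The members and the gene lists were chosen with earlier results of these data known. The authors deposited counts per gene, RPKM per gene and per transcript, and estimated counts per transcript for 12 libraries, and tables of their own comparisons with log2 fold changes and p-values. Per the submitters' processing notes, the tools were featureCounts 1.4.5, Subread, STAR 2.0.4b, limma and edgeR, with no role stated for any. The sources used here do not give the build, annotation release, strand setting or transcript estimator. The authors' RKI comparison gives wild type minus homozygous, and its sign was turned here.

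Counts as deposited were tested with edgeR 4.0.16 (R 4.3.3) by the quasi-likelihood test, with TMM scaling, filterByExpr by group and Benjamini-Hochberg adjustment over all genes kept, at a threshold of 0.05. One fit of all 12 libraries held 4 group means and sex, with 7 residual degrees of freedom and a common biological coefficient of variation of 6.94%. P-values measure the spread between embryos. The authors' estimated counts were rounded and put through the same test, which ignores their estimation error. Fold changes are mutant over wild type, and intervals are at 95%. The lists and their sources are general knowledge of these cells and complexes, each described by counts and median only. The 3 genes with the smallest RKI p are named for the lists of partners, related genes, SNAG factors, REST targets and neurogenic progenitors. The lists of other cell types are given by counts and medians, without these genes. In edgeR's quasi-likelihood test for RKI, 1 gene each of the neuron, radial glia and choroid plexus lists had an unadjusted p under 0.05. The other lists had 0 such genes. For Insm1 and Rcor2 the 5 genes with the highest correlation of log2 CPM (prior count 2) are named. A few genes that these rules would name are not reported here. Sequences and positions were read from GENCODE M21 on GRCm38. The test was tested on simulated data. Alternatives were DESeq2 1.42.0, limma-voom (limma 3.58.1), other scalings and filters, no sex term, each experiment alone, each embryo left out, and gene totals of transcript estimates. The last, and the alternatives on the list medians, were added after seeing the data.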

Additional observations from a re-analysis of the deposited data

How the results depend on the processing

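No paired analysis was possible because the embryo numbers are not shared between groups and no label names the litters. Of the member values for RKI, 160 of 168 kept their sign, and 156 of 160 did for sex, with 0 of the 8 genes passing under any alternative. With sex in the fit, the RKI values without A9 and without A10 rest on the same males, so these runs are not separate. For RKI, Insm1 ran from -0.134 to 0.067 without one embryo and was 0.023 on gene totals of transcript estimates, Hdac1 ran from -0.15 to 0.12 and Hdac2 from -0.035 to 0.025. For sex, without one embryo, Insm1 ran from -0.17 to 0.11, Rcor2 from -0.0055 to 0.086 and Kdm1a from -0.024 to 0.086. In LC1, Insm1 lay between 0.22 and 0.35 without one embryo and Rcor2 between 0.15 and 0.26. Genes called for RKI numbered 0 with all embryos, 0 to 2 without one embryo, 26 with no low-count filter and 4 on gene totals of transcript estimates. For sex the count of 8 became 45 with no low-count filter and 3 with at least 1 CPM in all 12 libraries. Transcripts called for RKI numbered 0, and 0 to 7 without one embryo, 132 with DESeq2, 2 with no low-count filter, 1 with at least 1 CPM in all 12 libraries and 1 with no sex term. The causes were not tested. On gene totals of transcript estimates Rcor1 was 0.12 in LC1. Gene counts were lowest for Rcor3, Hdac1 and Rest, at 351 to 792 per library, which limits their precision. For Hdac1 the transcript estimates in the same libraries summed to 1810 to 2686.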
